A study of Mus musculus with 10 samples.

Results

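The transcripts of 1 protease system were followed in mouse liver, namely those of the 4 transmembrane serine proteases Tmprss2, Tmprss6, Hpn and St14 and of the 2 membrane-bound Kunitz inhibitors Spint1 and Spint2. They are 6 of the 55401 genes counted, and 4 of the 6 were above the filter on low values that left 12234 genes for testing. Tmprss2 was chosen by its fall between the genotypes compared here, so its values are given as a description without a test, whereas the other 5 genes were added by family and function. Liver RNA was sequenced from 5 WT samples and 5 samples labelled as a liver-specific THRB KO, called Thrb-KO here, with 1 library per sample, and each sample was taken as 1 mouse. All samples carry a C57Bl6/J name in their titles (C56Bl6/J in the strain field), no treatment is given, and per the labels all mice had standard chow and a 12-h dark-light cycle. The labels do not give the age, sex or collection time of these samples, and the study's methods state an age and sex (young adult males) for purchased WT mice without tying them to these samples. In the Thrb-KO mice hepatocytes are stated to lose the thyroid hormone receptor beta gene through a Cre driven by the alpha-fetoprotein promoter (Afp-Cre, Thrb-loxP), and the labels do not say whether the WT mice carried the floxed allele or Cre. Nothing in the labels states how litters or days were shared. The p-values set the genotype difference against the spread between samples of a genotype. A difference of litter or day between the genotypes would not be part of that spread.

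Type II transmembrane serine proteases have a short tail inside the cell, a single membrane span and an extracellular stem that ends in a chymotrypsin-like catalytic domain. They are made as inactive precursors and become active once cleaved, after which Kunitz inhibitors of the same membrane, HAI-1 (Spint1) and HAI-2 (Spint2), bind and restrain several of them. Tmprss6 encodes matriptase-2, a hepatocyte protease that cleaves hemojuvelin and thereby holds down hepcidin, the iron hormone. Hpn encodes hepsin, a major hepatocyte surface protease that can activate the precursor of hepatocyte growth factor and factor VII. St14 encodes matriptase of epithelia, which activates prostasin (Prss8) and protease-activated receptor 2. Tmprss2 is known as an androgen-responsive gene of prostate and as a host protease that cleaves viral surface proteins, and its role in liver is less well defined.

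The catalytic serine is the feature shared by the 4 proteases, and the coding stretch around it shows how alike they are at the catalytic site. Each line below gives 33 coding bases, 5′ to 3′, with the codon of the active serine in capitals, from the GENCODE transcripts of GRCm38. The stretch runs over an intron in each gene, so its genomic span is longer than 33 bases.
Tmprss2: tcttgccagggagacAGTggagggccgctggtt
Tmprss6: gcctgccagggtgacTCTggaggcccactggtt
Hpn: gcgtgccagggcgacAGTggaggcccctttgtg
St14: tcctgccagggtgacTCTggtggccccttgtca
The serine is residue 439 of 490 in Tmprss2, 762 of 811 in Tmprss6, 381 of 445 in Hpn and 805 of 855 in St14. Between 22 (Tmprss2 and St14) and 26 of the 33 bases were identical in any pair. Tmprss2 shared 26 bases with Tmprss6 and 25 with Hpn. The serine codon was AGT in Tmprss2 and Hpn and TCT in Tmprss6 and St14. The stretches lie on the minus strand of GRCm38 at chr16:97567152-97567604 for Tmprss2, chr15:78440349-78440616 for Tmprss6, chr7:31099356-31099514 for Hpn and chr9:31090004-31090410 for St14.

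In the GENCODE annotation of GRCm38, Tmprss2 (ENSMUSG00000000385) spans chr16:97564682-97611195 on the minus strand and has 7302 bases of merged exons. Tmprss6 (ENSMUSG00000016942) lies at chr15:78439667-78468634, Hpn (ENSMUSG00000001249) at chr7:31098725-31115290 and St14 (ENSMUSG00000031995) at chr9:31089402-31131853, all on the minus strand. Spint1 (ENSMUSG00000027315) lies at chr2:119237362-119249527 on the plus strand and Spint2 (ENSMUSG00000074227) at chr7:29256323-29281912 on the minus strand. None of the 6 genes shares an exon base with another gene, so that counting without strand does not mix their reads with those of an annotated neighbour.

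Library totals were 26477195 to 28530198 counts in WT and 27779196 to 28590704 in Thrb-KO mice, and 3 counts were worth between 0.0993 and 0.117 CPM (counts scaled to a library total of 1e+06, and further with TMM factors, a correction for library composition). Thrb itself fell from 33.3 ± 0.643 to 26.7 ± 1.93 CPM (SD, n = 5 each), a change of -0.32 on the log2 scale (adjusted p 0.036 by edgeR's quasi-likelihood F-test), and a gene's count does not tell its exons apart. Dio1, the deiodinase gene known as a thyroid hormone target of liver, fell from 166 ± 25.5 to 20.3 ± 5.06 CPM (log2 fold change -3.03, adjusted p 1.3e-05 by the same test). Hepatocyte markers were abundant, as the liver label asks, with a summed level of 82035 to 124527 CPM in WT and 99520 to 111776 in Thrb-KO mice. In bulk liver, fewer cells of a type and less RNA per cell cannot be told apart.

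Tmprss2 was present at a modest level and was lower in each Thrb-KO mouse than in each WT mouse. Its level was 10.9, 10.2, 12.9, 8.95 and 13.2 CPM in WT mice 1 to 5 and 3.61, 4.24, 3.50, 2.91 and 3.64 CPM in Thrb-KO mice 1 to 5. The lowest WT mouse thus stood clear of the highest Thrb-KO mouse, and the Thrb-KO mice were also closer to each other in CPM. The counts behind these levels were 229 to 360 per WT library (1523 in all) and 88 to 113 per Thrb-KO library (510 in all). The mean went from 11.2 ± 1.80 to 3.58 ± 0.471 CPM (SD, n = 5), which is 31.9% of the WT level and a log2 fold change of -1.65 (standard error 0.137). The spread within a genotype was 0.21 on the log2 scale, and 57.2% of the tested genes had a smaller one. Among the 12234 tested genes Tmprss2 had the 46th lowest log2 fold change. Across all tested genes 4.08% passed an adjusted p of 0.15 (185 higher and 314 lower), 3.64% had genotypes that did not overlap in level, and 2.26% did so with the Thrb-KO mice lower. An unadjusted p under 0.05 was reached by 13.6% of the tested genes in edgeR, and DESeq2 and limma-voom called 7.24% and 7.19% of them at 0.15. As Tmprss2 was picked for this contrast, nothing is read from its place against these shares.

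**Figure D1:**
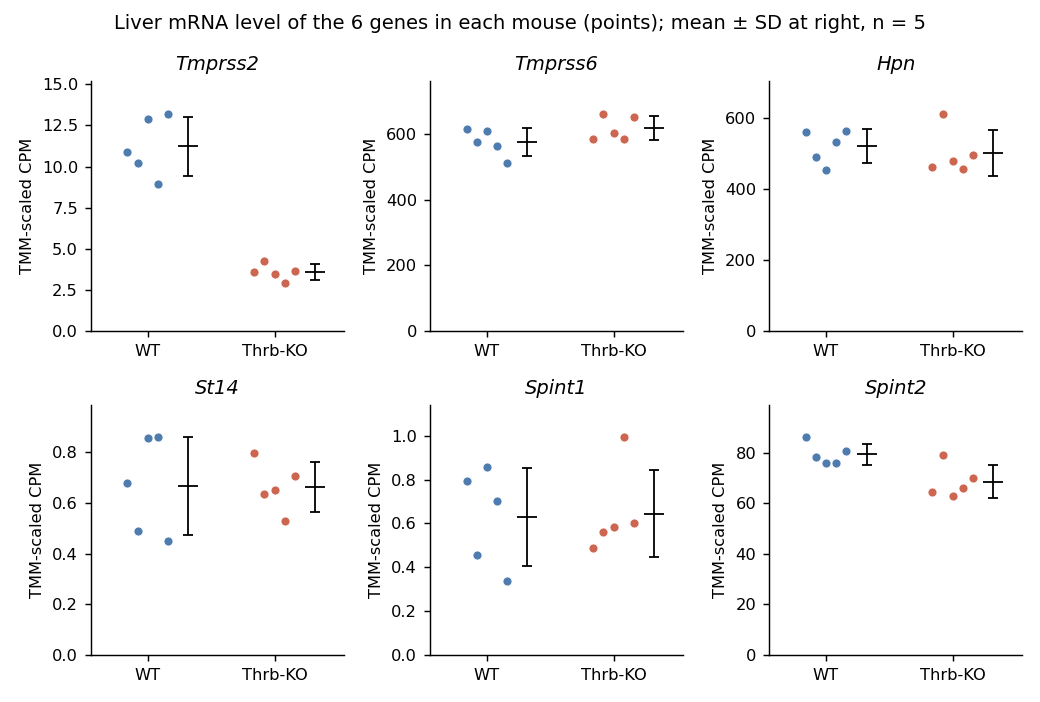
Level of each of the 6 genes in TMM-scaled CPM (vertical axes, each starting at 0) for the 5 WT (blue) and 5 Thrb-KO (red) mice, with the mean and SD of 5 mice in black. Tmprss2 is the gene whose groups are apart, at 8.95 to 13.2 CPM in WT and 2.91 to 4.24 CPM in Thrb-KO mice, while the points of the other 5 genes overlap.

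The hepatocyte proteases Tmprss6 and Hpn were far more abundant and did not pass the test. Tmprss6 was at 615, 575, 609, 562 and 512 CPM in WT mice 1 to 5 and at 584, 661, 602, 585 and 651 CPM in Thrb-KO mice 1 to 5. The ranges overlapped, and the mean went from 575 ± 41.3 to 617 ± 36.8 CPM (SD, n = 5), with a fitted log2 fold change of 0.10 (95% confidence interval -0.085 to 0.29, adjusted p 0.66 by edgeR's quasi-likelihood F-test). Hpn was at 561, 490, 453, 534 and 563 CPM in WT mice and at 463, 612, 480, 458 and 495 CPM in Thrb-KO mice. Its highest value, in Thrb-KO mouse 2, was in the group with the lower mean. The mean of Hpn was 520 ± 47.9 and 502 ± 63.5 CPM (SD, n = 5), with a log2 fold change of -0.052 (95% confidence interval -0.28 to 0.18, adjusted p 0.89 by edgeR's quasi-likelihood F-test). Their spread within a genotype on the log2 scale was 0.096 for Tmprss6 and 0.15 for Hpn, and 8.53% and 34.1% of the tested genes had a smaller one.

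The inhibitor Spint2 showed a smaller difference that missed the threshold. Its level was 86.2, 78.5, 75.8, 76.2 and 80.8 CPM in WT mice 1 to 5 and 64.7, 79.2, 63.0, 66.0 and 70.3 CPM in Thrb-KO mice 1 to 5. In all, 4 of the 5 Thrb-KO mice were below each WT mouse, and Thrb-KO mouse 2 lay among the WT mice. The mean went from 79.5 ± 4.25 to 68.6 ± 6.51 CPM (SD, n = 5), or 86.3% of WT, with a log2 fold change of -0.21 (95% confidence interval -0.38 to -0.046). This gave an unadjusted p of 0.016 and an adjusted p of 0.24 by edgeR's quasi-likelihood F-test. Spint2 passed 0.15 in 3 of 19 alternative fits, namely under DESeq2 (adjusted p 0.149), under limma-voom (adjusted p 0.096) and in edgeR without Thrb-KO mouse 2 (adjusted p 0.079), and the range of its adjusted p over the alternatives was 0.079 to 0.9998.

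St14 and Spint1 were near the floor of these libraries. St14 had 12 to 24 counts per library in WT and 16 to 23 in Thrb-KO mice, 90 and 95 in all, or 0.667 ± 0.195 and 0.665 ± 0.0987 CPM (SD, n = 5). Spint1 had 9 to 24 counts in WT and 14 to 30 in Thrb-KO mice, 85 and 93 in all, or 0.629 ± 0.224 and 0.645 ± 0.199 CPM (SD, n = 5). Neither reached 1 CPM in 5 libraries (0 libraries for St14, 1 for Spint1), so both were left out of the main test. With no filter, over 27817 genes, the log2 fold change was -0.012 for St14 (95% confidence interval -0.60 to 0.58, adjusted p 0.99 by edgeR's quasi-likelihood F-test). For Spint1 it was 0.035 (95% confidence interval -0.60 to 0.67, adjusted p 0.99 by the same test). These intervals are wide at this depth, and how large a change of either gene would have passed 0.15 was not tested. Their levels were close to those of the bile duct keratins, since Krt19 was at 0.721 ± 0.277 and Krt7 at 0.771 ± 0.146 CPM in WT livers (SD, n = 5). Of the 5 members other than Tmprss2, 3 were thus tested and 0 passed 0.15 by edgeR's quasi-likelihood F-test, against 4.08% of all tested genes. Among these 3, 1 (Spint2) was under an unadjusted p of 0.05 in that test, against 13.6% of all tested genes. Nothing is read from a count over so few genes.

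Set per length, the members spread over more than 3 orders of magnitude on the scale of CPM per kb of merged exons. In WT livers the mean level per kb was 171 ± 12.3 for Tmprss6, 127 ± 11.7 for Hpn, 17.4 ± 0.932 for Spint2, 1.54 ± 0.246 for Tmprss2, 0.227 ± 0.0810 for Spint1 and 0.0874 ± 0.0256 for St14 (SD, n = 5). Neighbours in this order did not overlap between mice, from 153 to 183 for Tmprss6 against 110 to 137 for Hpn at the top to 0.122 to 0.310 for Spint1 against 0.0588 to 0.113 for St14 at the bottom. The order of the upper pair depends on the length used, because with the longest transcript Hpn was at 280 and Tmprss6 at 180 CPM per kb. The lower pair depends on it too, since with that length Spint1 (0.145 to 0.369) and St14 (0.127 to 0.242) overlapped in WT mice. In Thrb-KO livers the order by mean was unchanged, with 184 for Tmprss6, 122 for Hpn, 15.1 for Spint2, 0.490 for Tmprss2, 0.233 for Spint1 and 0.0871 for St14. The ratio of mean levels per kb between Tmprss6 and Tmprss2 went from 111 to 374, that between Hpn and Tmprss2 from 82.5 to 249.5, and that between Spint2 and Tmprss2 from 11.3 to 30.7.

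**Figure D2:**
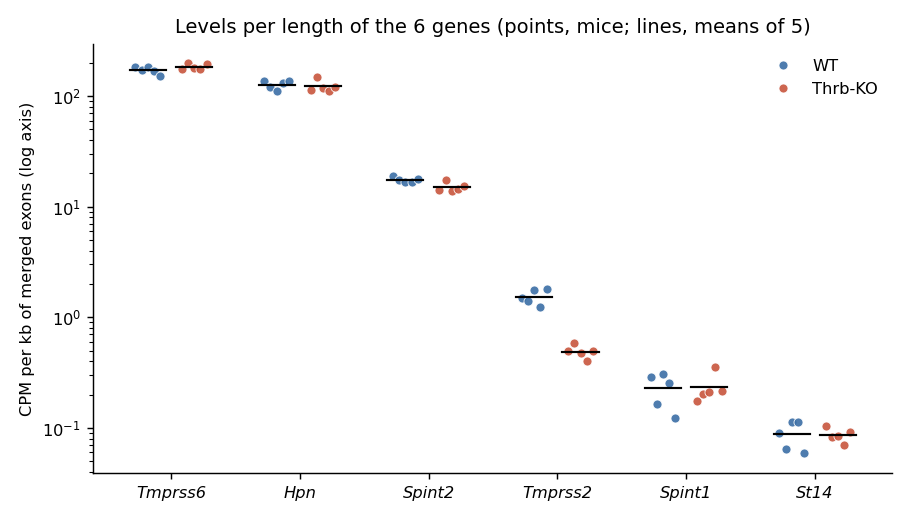
CPM per kb of merged exons (log axis) of the 6 genes in each WT (blue) and Thrb-KO (red) mouse, with the mean of 5 mice as a line. The genes run from Tmprss6 at a WT mean of 171 to St14 at 0.0874, and Tmprss2 is the gene whose clouds are apart, with means of 1.54 and 0.490.

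Protease and inhibitor act on each other at the membrane, so their ratio was compared within each mouse for the 4 pairs of Hpn or St14 with Spint1 or Spint2, as a difference of log2 CPM. Hpn minus Spint2 was 2.70, 2.64, 2.58, 2.81 and 2.80 in WT mice 1 to 5 and 2.84, 2.95, 2.93, 2.79 and 2.82 in Thrb-KO mice 1 to 5. In all, 4 of the 5 Thrb-KO mice were above each WT mouse. The mean difference went from 2.71 ± 0.10 to 2.87 ± 0.069 (SD, n = 5), by 0.16, with p = 0.024 by a two-sided exact permutation test of the genotypes, whose smallest possible p is 0.0079. Adjusted over the 4 pairs this was p = 0.095 (exact permutation), above the 0.05 at which these ratios were read and below the 0.15 used for the genes. The change was -0.12 for Hpn minus Spint1 (p = 0.75), -0.034 for St14 minus Spint1 (p = 0.91) and 0.24 for St14 minus Spint2 (p = 0.31), each by the same exact permutation test and each resting on the low counts of Spint1 or St14.

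**Figure D3:**
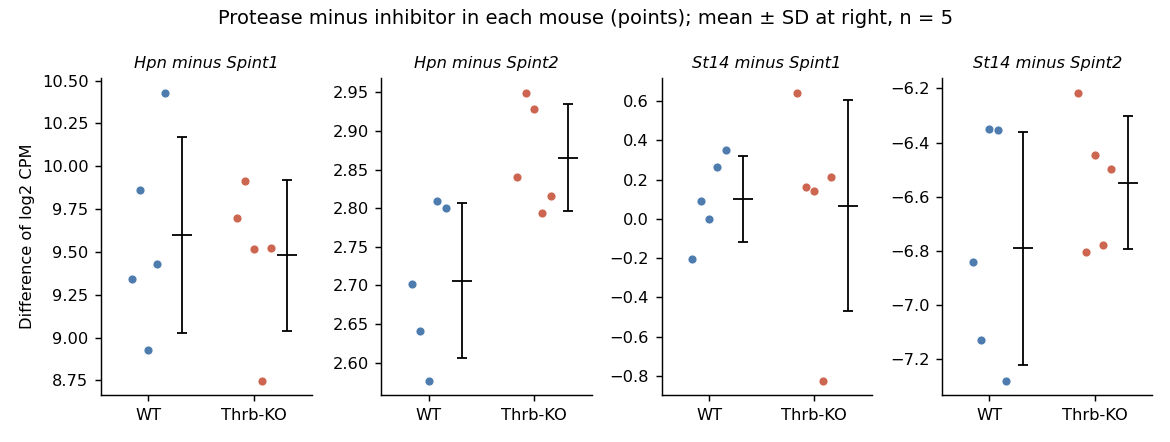
Difference of log2 CPM between a protease and an inhibitor (vertical axes, not starting at 0) in each WT (blue) and Thrb-KO (red) mouse, with the mean and SD of 5 mice in black. For Hpn minus Spint2 the mean goes from 2.71 to 2.87, and the other 3 pairs overlap widely.

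The rest of the family was nearly silent in these livers. Of 16 other type II transmembrane serine proteases, 8 had no count in any of the 10 libraries, among them most of the Tmprss11 genes, and the other 8 had 229 counts in total. The highest level was 0.420 CPM in 1 library for Tmprss4, and none of the 16 genes reached the filter for testing (0 tested). Tmprss3, named after its values were seen, had 1, 9, 4, 4 and 5 counts in WT mice 1 to 5 and 1, 1, 0, 0 and 1 in Thrb-KO mice 1 to 5, and it passed 0.15 when no filter was applied. Corin, the protease of atrial natriuretic peptide, had 44 counts in all. The glycosylphosphatidylinositol-anchored protease Prss8 (prostasin), a substrate of St14, was present at 15.6 ± 5.19 and 15.3 ± 4.97 CPM (SD, n = 5), with a log2 fold change of -0.019 (95% confidence interval -0.61 to 0.57, adjusted p 0.99 by edgeR's quasi-likelihood F-test). Per mouse its range was 11.4 to 24.3 CPM in WT and 8.47 to 20.8 CPM in Thrb-KO livers, and the 2 ranges overlapped. The related genes Prss21 and Tpsg1 had 0 and 1 count.

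Other inhibitors of serine proteases were measured beside Spint1 and Spint2. Of 10 such Kunitz and serpin genes, 5 were tested and 0 passed 0.15 by edgeR's quasi-likelihood F-test, with a median log2 fold change of -0.17 against 0.00054 for all tested genes. At an unadjusted p under 0.05 there were 2 (Serping1 and Tfpi2), and DESeq2 and limma-voom each called 1 at 0.15, Serping1, where 13.6%, 7.24% and 7.19% of all tested genes were so called. Antithrombin (Serpinc1) was at 1934 ± 197 and 1972 ± 153 CPM (SD, n = 5), with a log2 fold change of 0.028. Antiplasmin (Serpinf2) was at 1339 ± 210 and 1101 ± 256 CPM, with a log2 fold change of -0.28 (95% confidence interval -0.65 to 0.079). The closest to the threshold was the C1 inhibitor gene Serping1, named after its values were seen, with a log2 fold change of -0.37 and an adjusted p of 0.17 by edgeR's quasi-likelihood F-test, and its genotypes did not overlap.

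The substrates and receptors downstream of hepsin and matriptase held no call in the main test. Of 14 genes of the hepatocyte growth factor, macrophage-stimulating protein and protease-activated receptor 2 routes, 10 were tested, 8 were fitted lower in Thrb-KO mice and 0 passed 0.15 by edgeR's quasi-likelihood F-test, with a median log2 fold change of -0.20. Of all tested genes 6104 were fitted lower and 6130 higher. At an unadjusted p under 0.05 there were 4 (Cdcp1, Egfr, F7 and Plg), and DESeq2 and limma-voom each called 2 at 0.15, beside the same shares of all genes, and nothing is read from a list of this size. Plasminogen (Plg), the precursor of the main fibrin-cleaving protease, was at 2842 ± 327 and 2192 ± 355 CPM (SD, n = 5), with a fitted log2 fold change of -0.37 (95% confidence interval -0.66 to -0.087, adjusted p 0.23 by edgeR's quasi-likelihood F-test). Egfr, the epidermal growth factor receptor gene, was at 1015 ± 320 and 711 ± 145 CPM, a log2 fold change of -0.51 (95% confidence interval -0.98 to -0.046, adjusted p 0.32 by the same test). Hgf itself was low, at 1.98 ± 0.505 and 2.08 ± 0.635 CPM, and its receptor gene Met was at 89.0 ± 8.88 and 79.5 ± 10.7 CPM. Of these 14 genes F2rl1, the gene of protease-activated receptor 2, stayed below the filter at 0.113 to 0.393 CPM.

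The route that Tmprss6 acts on, from hemojuvelin over bone morphogenetic protein (BMP) signalling to hepcidin, held 1 call. Of its 23 genes 22 were tested, 14 were fitted higher and 8 lower, and the median log2 fold change was 0.082. At an unadjusted p under 0.05 by edgeR's quasi-likelihood F-test there were 6 of the 22, against 13.6% of all tested genes. The single call at 0.15 among 22 genes is close to the 4.08% of all tested genes. The call was Fgl1, a hepatocyte-secreted fibrinogen-like protein, which fell from 963 ± 223 to 310 ± 158 CPM (SD, n = 5), with a fitted log2 fold change of -1.64 and an adjusted p of 0.047 by edgeR's quasi-likelihood F-test. Its range was 704 to 1220 CPM in WT and 156 to 531 CPM in Thrb-KO mice, without overlap, and with an acute-phase covariate its fitted change was -0.56 and no longer past 0.15. Tfr2, the transferrin receptor 2 gene that marks iron-sensing hepatocytes, was at 627 ± 49.2 and 544 ± 72.6 CPM, a log2 fold change of -0.20 (adjusted p 0.43 by the same test). Hjv, the direct substrate of matriptase-2, was at 98.3 ± 17.2 and 95.5 ± 15.3 CPM with a log2 fold change of -0.042 (95% confidence interval -0.33 to 0.25). Hepcidin (Hamp), the end of the route, spread widely in WT livers, from 169 to 647 CPM, and lay between 528 and 804 CPM in Thrb-KO livers. Its log2 fold change of 0.81 (95% confidence interval 0.060 to 1.56) gave an adjusted p of 0.33 by edgeR's quasi-likelihood F-test. The BMP target genes Id1 (1.08, adjusted p 0.24), Atoh8 (0.70, adjusted p 0.25) and Smad6 (0.37, adjusted p 0.20) were likewise fitted higher without passing 0.15 in that test. These 5 genes beyond Fgl1 and Tfr2 were named after their values were seen. Under DESeq2 4 genes of this list passed 0.15, namely Id1, Atoh8 and Smad6 as higher and Fgl1 as lower, while DESeq2 called 885 of all genes (7.24%).

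**Figure D4:**
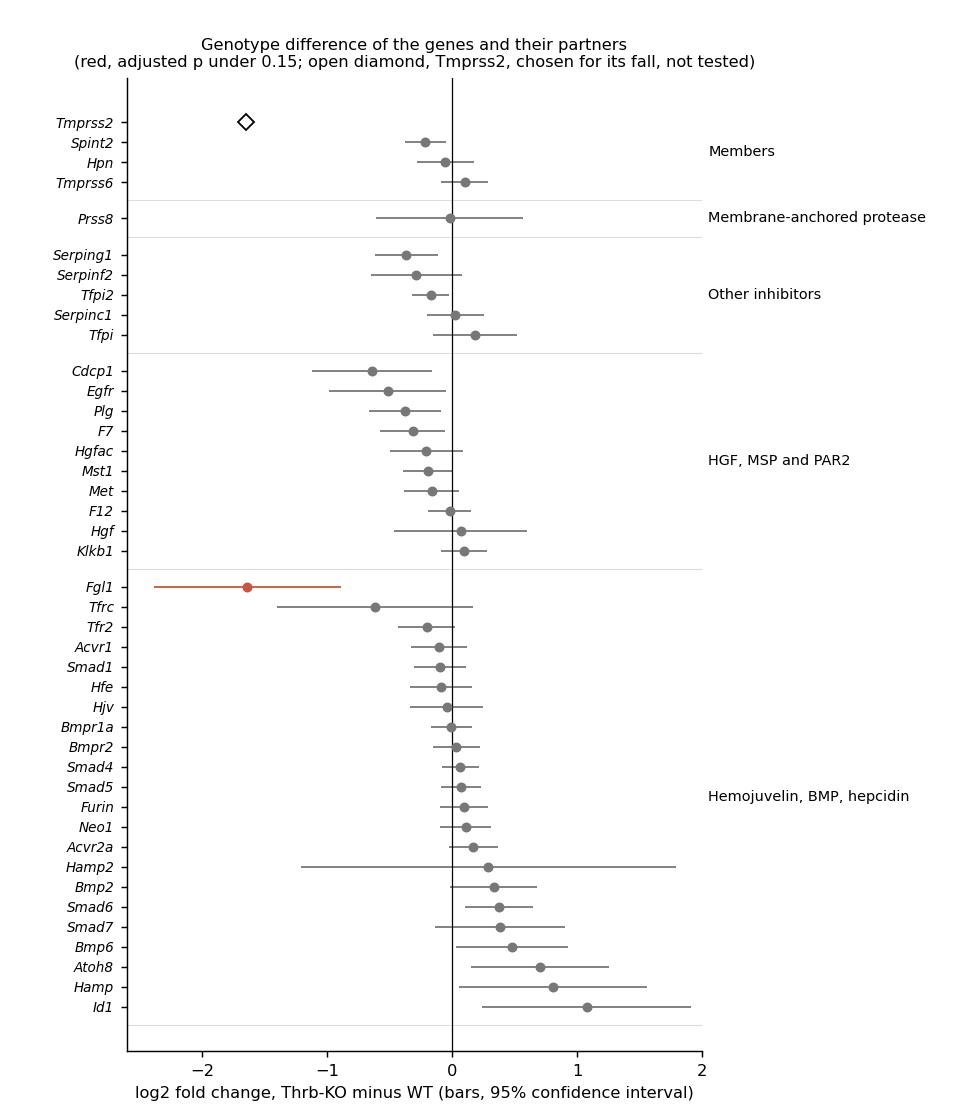
Log2 fold change, Thrb-KO minus WT (horizontal axis), with the 95% confidence interval of edgeR's quasi-likelihood fit, for the tested members, Prss8, other inhibitors and the genes of the routes the proteases act on. Tmprss2, chosen for its fall, is drawn as an open diamond at -1.65 without an interval, and Fgl1 at -1.64 is the gene in red, past an adjusted p of 0.15.

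The genes whose level moved most like that of Tmprss2 over the 10 mice were sought among the other 12233 tested genes, by the root mean square difference of their log2 CPM from that of Tmprss2 after each gene was centred on its mean. As the fall between genotypes dominates this measure, it is a description. The 5 closest were Gm15318 (0.22), the major urinary protein pseudogene Mup-ps13 (0.28), the cytochrome P450 gene Cyp4f16 (0.30), the lysosomal transporter gene Slc46a3 (0.31) and the serum amyloid gene Saa4 (0.33), where the median gene was at 0.85. Gm15318 was at 7.66 ± 1.47 CPM in WT and 2.77 ± 0.442 CPM in Thrb-KO mice (SD, n = 5), and Cyp4f16 at 4.46 ± 0.723 and 1.84 ± 0.273 CPM. Mup-ps13 went from 20.5 ± 2.70 to 7.04 ± 1.16 CPM, but it has near-identical copies and reads with several possible places were dropped, which leaves its level uncertain. Slc46a3 went from 76.3 ± 12.5 to 31.2 ± 8.68 CPM and Saa4 from 651 ± 156 to 273 ± 52.2 CPM. With each genotype centred on its own mean the 5 closest genes were Stoml1, Supt20, Pfkfb2, Zfp182 and Mafg, at 0.088 to 0.093, and 0 of the first 5 were among them. The other tested members were much less like Tmprss2, with Spint2 in place 1082 (0.73), Hpn in place 3458 (0.81) and Tmprss6 in place 8005 (0.88).

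**Figure D5:**
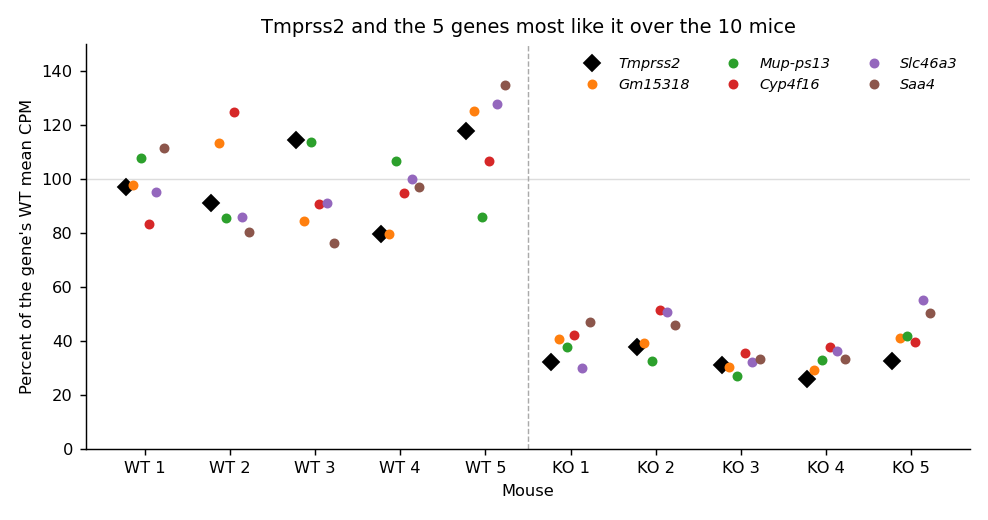
Level of Tmprss2 (black diamonds) and of the 5 genes most like it (coloured circles), as a percent of each gene's WT mean (vertical axis, from 0), in WT mice 1 to 5 and Thrb-KO mice 1 to 5. The 6 genes lie near 100% in WT mice, with a spread around it, and all lie lower in each Thrb-KO mouse, where the mean of Tmprss2 is 3.58 CPM against 11.2 CPM in WT.

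The nearest tested gene on either side of each member on the chromosome was read as well. On chromosome 16 the nearest tested genes to Tmprss2 were the interferon-induced Mx2, 3.78 kb away, and the kinase gene Ripk4, 131 kb away. Mx2 was at 7.38 ± 1.77 and 5.97 ± 1.47 CPM (SD, n = 5), with a log2 fold change of -0.31 (95% confidence interval -0.74 to 0.13). Ripk4 was at 9.02 ± 1.44 and 7.92 ± 1.29 CPM, with a log2 fold change of -0.19 (95% confidence interval -0.49 to 0.12). Of the 12 tested neighbours 2 passed 0.15 by edgeR's quasi-likelihood F-test, both beside Spint2 on chromosome 7, against 4.08% of all tested genes. Nothing is read from so small a list. Ppp1r14a, 7.395 kb away and encoding an inhibitor of myosin phosphatase, was at 1.64 ± 0.312 CPM in WT and 0.968 ± 0.119 CPM in Thrb-KO mice without overlap (log2 fold change -0.76, adjusted p 0.070 by edgeR's quasi-likelihood F-test). It lay near the filter of 1 CPM, at 1.32 to 2.07 CPM in WT and 0.828 to 1.10 CPM in Thrb-KO mice. Its level in the WT mice brought it past the filter, so nothing is read from its call or its lack of overlap. The gene 2200002D01Rik, 7.86 kb away, went from 5.38 ± 0.384 to 3.42 ± 0.859 CPM (log2 fold change -0.65, adjusted p 0.066 by the same test). Both were no longer past 0.15 without Thrb-KO mouse 3 (adjusted p 0.16 for each by edgeR's quasi-likelihood F-test), and Ppp1r14a also without WT mouse 2 (adjusted p 0.16) and with the replicate block (adjusted p 0.18), each by the same test. With the acute-phase covariate (a component of the acute-phase genes) neither passed (adjusted p 0.9998 for each by the same test), at fitted log2 fold changes of -0.82 for Ppp1r14a and -0.35 for 2200002D01Rik. For 7 tested neighbours of Tmprss6, Hpn, St14 and Spint1 the log2 fold changes were between 0.0066 (Vps18) and 0.20 (Zbtb44), and 0 of them passed 0.15 by edgeR's quasi-likelihood F-test, by DESeq2 or by limma-voom, with 0 at an unadjusted p under 0.05.

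Since the deleted gene encodes a DNA-binding receptor, the 250 bases before the start of Tmprss2 are shown as the RefSeq table for GRCm38.p6 gives them, chr16:97611196-97611445, minus strand, 5′ to 3′ and all in lower case because no searched motif was in them.
Tmprss2: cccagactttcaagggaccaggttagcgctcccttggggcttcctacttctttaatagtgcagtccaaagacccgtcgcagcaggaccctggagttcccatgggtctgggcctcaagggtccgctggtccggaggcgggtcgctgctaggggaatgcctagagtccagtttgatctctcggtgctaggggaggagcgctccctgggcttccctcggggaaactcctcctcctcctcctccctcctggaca
The motifs searched on both strands were the nuclear receptor hexamer AGGTCA and its direct repeat with a spacer of 4 bases, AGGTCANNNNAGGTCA, which contains the first. Neither was found in this window, nor in those of Hpn (2 windows), Spint1 and Spint2, and this says only that these letters are not there. Of 32851 mouse windows of this length 14.02% held the hexamer and 0.0152% the repeat. The Tmprss2 window had a GC content of 61.6% and 10 CpG, against a median of 52.4% and 6, while that of Spint2 had 69.6% and 24 CpG and that of Spint1 72.8% and 26.

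Genes of the acute phase, the liver's secreted response to inflammation, were lower in Thrb-KO mice, and markers of other cell types were read beside them. Of 23 acute-phase genes 13 passed as lower in Thrb-KO mice by edgeR's quasi-likelihood F-test, with a median log2 fold change of -0.98. Examples were the serum amyloid gene Saa1 (-5.03), the lipocalin gene Lcn2 (-4.18), Apcs for serum amyloid P (-1.74), haptoglobin Hp (-1.33), Itih4 for an inter-alpha-trypsin inhibitor chain (-0.98) and Lbp for the lipopolysaccharide-binding protein (-0.81). The fibrinogen genes Fga (-0.51) and Fgb (-0.51), the 2 most abundant of the list, did not pass. The mean log2 level of the list was 7.89 to 9.25 in WT and 6.63 to 7.71 in Thrb-KO mice, so acute-phase level and genotype cannot be told apart here. The summed level of the list did overlap, at 37837 to 88068 CPM in WT and 25035 to 41917 CPM in Thrb-KO mice. With the leading component of these genes as covariate, the fitted log2 fold change was -1.50 for Tmprss2 and -0.049 for Spint2, and 7 of all tested genes passed 0.15 by edgeR's quasi-likelihood F-test. In that fit the log2 fold changes of Hpn (-0.052 without the covariate), Prss8 (-0.019) and Serpinf2 (-0.28) turned to 0.17, 0.27 and 0.0030, and none of the 3 passed 0.15 in either fit. Of 6 Kupffer cell and leukocyte markers 6 were fitted lower with a median log2 fold change of -0.67 and 0 passed by edgeR's quasi-likelihood F-test, and their summed level overlapped, at 80.4 to 313 CPM in WT and 89.0 to 192 CPM in Thrb-KO mice. Cholangiocyte markers summed to 44.5 to 67.7 and 43.8 to 51.3 CPM, sinusoidal endothelial markers to 113 to 134 and 119 to 152 CPM, and stellate markers to 82.0 to 125 and 112 to 134 CPM, of which Des passed as higher (0.67, adjusted p 0.057 by edgeR's quasi-likelihood F-test). All 6 stellate markers were fitted higher, with a median log2 fold change of 0.26. An unadjusted p under 0.05 was reached by 4 of the 6 tested Kupffer cell and leukocyte markers, 2 of 4 cholangiocyte, 2 of 5 endothelial and 2 of 6 stellate markers, against 13.6% of all genes, and DESeq2 called 1, 0, 2 and 1 of them and limma-voom 0, 0, 2 and 1. Of 10 pancreatic acinar markers, the trypsin gene Prss2 was at 0 in each WT library and at 0.137 CPM in Thrb-KO mouse 3. Traces of others were present, such as Cpa1 at 0.280 CPM in WT mouse 2 and 0.172 CPM in Thrb-KO mouse 3. In all, 9 of the 10 markers were below the filter. Among these 9 was the elastase gene Cela2a, named after its values were seen. It was lower without overlap, at 0.703 to 1.54 CPM in WT and 0.0993 to 0.389 CPM in Thrb-KO mice. Cela2a was not tested, and 3.64% of all tested genes had genotypes that did not overlap. The 1 tested marker, Cela1, was fitted higher (log2 fold change 0.34, adjusted p 0.63 by edgeR's quasi-likelihood F-test). The summed level of the 10 markers overlapped, at 9.72 to 18.6 CPM in WT and 10.1 to 21.5 CPM in Thrb-KO mice. Most of this sum was Cela1, with means of 12.3 CPM in WT and 15.6 CPM in Thrb-KO mice. The part of these cell types in the values of Tmprss2 and Spint2 was not tested.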

How the data were processed

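The deposited files hold raw counts per Ensembl gene for liver libraries of 5 WT and 5 Thrb-KO mice (stranded mRNA libraries). The authors mapped reads to mm10 with HISAT2 2.2.1 and counted them with HTSeq 0.9.1 in union mode without strand, leaving out reads that fit several places or genes, which lowers genes with near-identical copies. A deposited table of the authors' own comparison (fold changes and p-values) was not used. Genes that reached 1 CPM in 5 or more libraries entered edgeR 4.0.16 (TMM factors, quasi-likelihood F-test, robust settings) in R 4.3.3, with Benjamini-Hochberg adjustment over all 12234 tested genes at 0.15, the study's threshold. The steps were tested on simulated data. Ratios were compared with exact permutation tests in SciPy 1.17.1. Lengths, positions and coding bases come from GENCODE vM21 (GRCm38), a release other than the one counted on, and 260 gene identifiers had no symbol there. Promoter windows come from RefSeq (GRCm38.p6) and matched 4 of the 6 genes.

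The members and gene lists were chosen with earlier results of these data known. Beside the members, the genes named are those of each list past 0.15 (at most 6) and its 2 most abundant, the 5 genes most like Tmprss2, the nearest tested neighbours, Thrb and Dio1. Some genes of this rule, and the results that need them, are not reported here. Genes named otherwise are marked in the text or illustrate a group. Alternatives were RLE and upper-quartile scaling, no filter, filterByExpr, no robust settings, DESeq2 1.42.0, limma-voom (limma 3.58.1), a replicate block, an acute-phase covariate and leaving out each mouse. The limma-voom fit weighted each library by its estimated quality, so a library far from the others can count for less in it. Intervals and the floor of 3 counts cover counting error and the spread between libraries only. With 5 mice per group, small changes were often not detectable.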

Additional observations from a re-analysis of the deposited data

Results flagged for a closer look

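Among 100 groups of 5 mice checked for a single mouse far from the others by Dixon's test, 8 stood out, where chance gives about 1 in 20, or 5. All 8 were in Thrb-KO mice, and 5 of them involved Thrb-KO mouse 2. In that mouse Hpn was at 612 CPM, against 458 to 495 CPM in the other Thrb-KO mice, and Lcn2 at 30.2 CPM against 6.32 to 11.9 CPM. Vps18, a neighbour of Spint1, was low there at 14.6 CPM against 19.98 to 21.1 CPM, and 2200002D01Rik, a neighbour of Spint2, was high at 4.95 CPM against 2.90 to 3.16 CPM. The library total of Thrb-KO mouse 2 was the lowest of its group, 27779196 counts against 28441288 to 28590704. Without this mouse the log2 fold change of Tmprss2 was -1.71 and that of Hpn -0.13. Spint1 was at 0.993 CPM in Thrb-KO mouse 4, against 0.486 to 0.601 CPM in the other Thrb-KO mice, which is 30 counts against 14 to 17. In Thrb-KO mouse 1, Tfr2 was at 672 CPM against 496 to 534 CPM, and Fga at 11612 CPM against 5498 to 6983 CPM. No WT group and neither genotype of Tmprss2 stood out in this way.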

How the results depend on the processing

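The fitted log2 fold change of Tmprss2 kept its direction in all 19 alternatives, from -1.72 (without WT mouse 4) to -1.50 (acute-phase covariate), and was -1.72 to -1.58 when each mouse was left out. Of the members other than Tmprss2, 0 passed 0.15 in the main test and 1, Spint2, under DESeq2, under limma-voom and without Thrb-KO mouse 2 (0 to 1 over the left-out mice). Of all genes 499 passed, 885 under DESeq2, 880 under limma-voom, 7 with the acute-phase covariate and 222 to 665 when a mouse was left out, with 222 without Thrb-KO mouse 3, 227 without WT mouse 2 and 239 without WT mouse 5. Of the other type II proteases 1 passed with no filter, Tmprss3, which had 23 counts in WT and 3 in Thrb-KO libraries. Of the other inhibitors 1, Serping1, passed with no filter, under DESeq2 and under limma-voom, and 0 to 1 without single mice (1 without Thrb-KO mouse 1). Of the growth factor routes 1 passed with no filter (Cdcp1), 2 under DESeq2 and 2 under limma-voom, and 0 to 1 without single mice (Cdcp1 without WT mouse 4, F7 without Thrb-KO mouse 2). Of the hepcidin route 4 passed under DESeq2, 2 under limma-voom, 0 with the acute-phase covariate and 1 to 2 without single mice. Of the acute-phase genes 0 passed with their own component as covariate, which removes their shared change by construction, and 7 to 15 without single mice (7 without Thrb-KO mouse 3). The change of Hpn minus Spint2 was 0.13 to 0.19 over 12 alternatives with exact permutation p from 0.016 to 0.048. These p-values were not adjusted over the 4 pairs, and the main exact permutation p of 0.024 became 0.095 once so adjusted. That of Hpn minus Spint1, with a main value of -0.12, turned to 0.091 without WT mouse 5 and 0.066 without Thrb-KO mouse 4 (range -0.28 to 0.091). That of St14 minus Spint1 turned to 0.0066 without WT mouse 4, 0.028 without WT mouse 5 and 0.19 without Thrb-KO mouse 4 (range -0.18 to 0.19). Of 741 values of single genes under the alternatives 711 stayed on their side of 0.15, 12 passed it newly and 18 lost it, 14 of these with the acute-phase covariate. Except where a construction is named, the cause was not tested.

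The shared sample numbers gave no sign of a pairing, with deviations from the group means correlated at -0.20 to 0.0091 between samples of 1 number. With the replicate block 348 of all genes passed, 2 of the hepcidin route (Atoh8 and Fgl1) and 14 of the acute-phase genes, 0 of the members other than Tmprss2, and Tmprss2 was at -1.64. The neighbour Ppp1r14a lost its call with the block (adjusted p 0.18 by edgeR's quasi-likelihood F-test). St14 and Spint1 are limited by depth, at 9 to 30 counts per library.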
